A study of Homo sapiens with 6 samples.

Results

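The genes described here are those of the terminal part of the short arm of chromosome 9 (9p). They are the genes listed in GRCh37 on chromosome 9 with a start below 25000000 that had 10 or more reverse-stranded read counts in every sample, with SMARCA2 left out. Of the 57820 genes listed, 334 start in this span, 65 of them passed the count minimum, and 64 remained without SMARCA2. By current annotation, 52 of the 64 are protein-coding, 9 are long non-coding RNAs, 2 are pseudogenes, and 1 is no longer annotated. The span was chosen because earlier results of these same samples showed lower expression along it. The fold changes and calls of its genes between genotypes are therefore given as a description without a test of their own, with the question of where the fall begins and where it ends.

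RNA-seq covered 3 WT and 3 ARID1A-KO samples of the human osteosarcoma line AID-DivA, all untreated and numbered 3, 4 and 5 in each genotype. AID-DivA derives from U2OS cells, and all 6 samples carry the degron-tagged AsiSI nuclease of this line, which cuts DNA only once it is induced. The knockout was made with CRISPR-Cas9 and a pair of guide RNAs against ARID1A, and clones were then established. The sources used here do not say which clone or how many clones were sequenced, so genotype and clone cannot be told apart. In bulk RNA of this kind, fewer cells that express a gene and less RNA per cell cannot be told apart.

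ARID1A is a subunit of the SWI/SNF (BAF) chromatin remodelling complex, which moves nucleosomes with the energy of ATP, and SMARCA2 on 9p encodes one of its alternative ATPases. The terminal part of 9p holds genes of unrelated function side by side. They include the kinase JAK2, the immune checkpoint ligands CD274 (PD-L1) and PDCD1LG2 (PD-L2), the histone demethylase KDM4C, the ribosomal protein RPS6, the type I interferon cluster, and MTAP beside the cell cycle inhibitors CDKN2A and CDKN2B. The arm is best known for the frequent loss of MTAP, CDKN2A and CDKN2B in human tumours.

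The libraries held between 54512105 and 84088708 reverse-stranded counts, and levels are given below as CPM, the counts scaled to library size after TMM normalization. ARID1A itself had 166, 178 and 177 CPM in the WT samples and 25.1, 27.5 and 25.2 CPM in the ARID1A-KO samples, without overlap. On the log2 scale it fell by 2.74 (SE 0.07), with an adjusted p of 9.66e-08 in the quasi-likelihood test of edgeR. A gene is called lower or higher below when this test, adjusted over the 19599 genes tested, gave an adjusted p under 0.05. Of the marker lists, 6 of 6 mesenchymal genes, 2 of 2 epithelial genes and 1 of 3 leukocyte genes had enough counts to be tested. The mesenchymal markers summed to between 3392 and 3801 CPM in WT and between 4635 and 5222 CPM in ARID1A-KO samples, and VIM, the only one called higher, made up most of both sums. SPARC, COL1A1 and ALPL were called lower, at log2 fold changes of -0.89, -0.47 and -2.45. Epithelial markers came to at most 7.78 CPM in any sample. The leukocyte markers came to between 1.49 and 2.49 CPM in WT and between 0.176 and 0.693 CPM in ARID1A-KO samples, nearly all of it from PTPRC, with CD3E at 0 or 1 count. The part of these markers in the levels of the 9p genes was not tested.

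Along terminal 9p, expression was lower in ARID1A-KO cells over almost the whole span from ZNG1A to MIR31HG, which ends at 21559668. The 5 genes further in, from MTAP on, moved in both directions, with a median log2 fold change of 0.29. Of the 64 genes, 53 were called lower, 3 higher and 8 neither, where 18.4% of all genes tested were called lower, 17.8% higher and 36.2% either. In 54 of the 64, all 3 ARID1A-KO samples lay below all 3 WT samples, which was the case for 24.8% of all genes tested. A fall of 2-fold or more with a call was seen in 35 of them, against 5.92% of all genes tested. The median log2 fold change was -1.05, beside 0.01 for all genes tested, so that the middle gene kept 48.4% of its WT level. Since the span was chosen for this contrast, nothing further is read from these shares.

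The genes did not all fall by the same amount. The 132 genes with a mean log2 CPM over 1 in the first 40 Mb were put in chromosome order. They were divided at the 2 points that left the least absolute deviation from the segment medians, which put the span's genes into 3 stretches. The number of points was set to 2 and no other number was compared, so the count of 3 stretches comes from the method. The distal stretch ran from the chromosome end to DMAC1, which starts at 7796490, and held 32 genes with a median log2 fold change of -0.81. The inner stretch ran from LURAP1L-AS1, which starts at 12700100, to MIR31HG and held 27 genes with a median of -1.54. The last 5 genes, from MTAP to ELAVL2, had a median of 0.29 and are called the genes beyond the run. The middle gene kept 57.2% of its WT level in the distal stretch and 34.4% in the inner stretch. These stretches were drawn from the fold changes themselves, so their difference is given without a test.

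**Figure D1:**
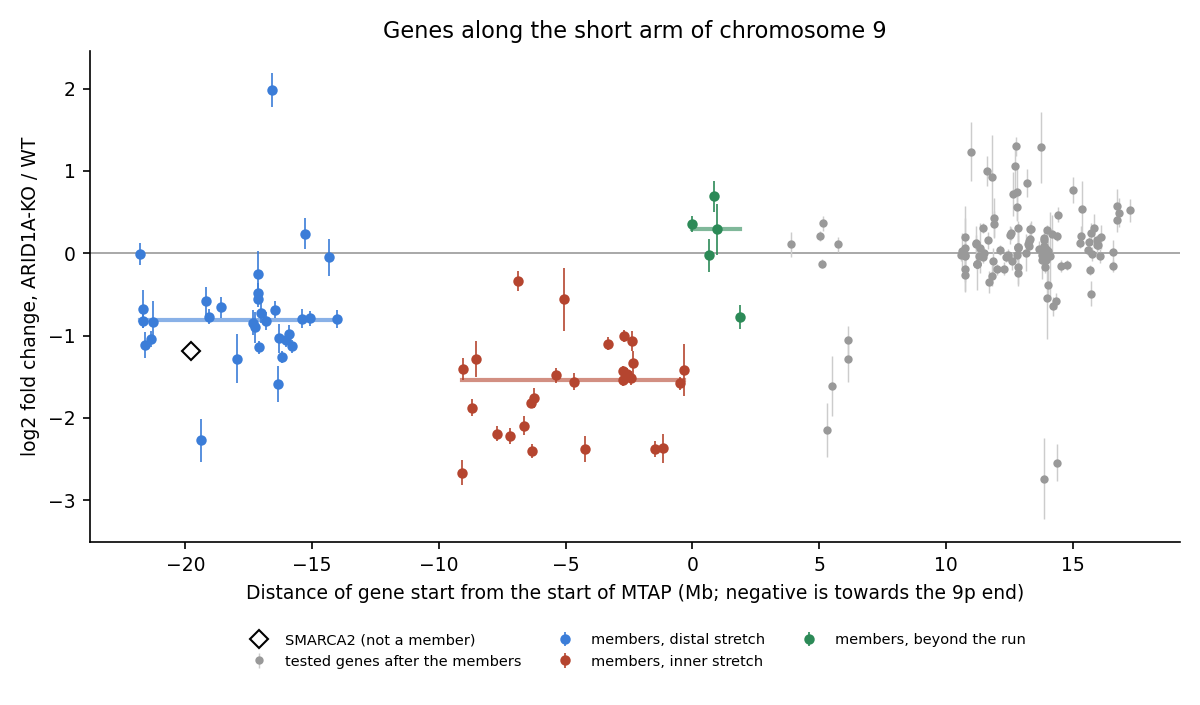
Each point is a gene, with the distance of its start from the start of MTAP in Mb on the x axis (negative towards the chromosome end) and its log2 fold change with the standard error of the fit on the y axis, coloured by stretch, and horizontal bars mark stretch medians. The distal genes centre on -0.81 and the inner genes on -1.54. The 5 genes from MTAP on spread from -0.77 to 0.69, and most of the tested genes after them (grey) lie around 0.

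The same levels were seen in each sample. With every gene set to its own WT mean, the median level of the distal genes was 61.5%, 57.3% and 52.9% in ARID1A-KO replicates 3, 4 and 5, and 98.6%, 102% and 96.2% in WT replicates 3, 4 and 5. For the inner genes it was 34.1%, 34.6% and 32.9% in the ARID1A-KO samples and 103%, 97.3% and 97.7% in the WT samples. The genes beyond the run stood at 97.4%, 120% and 110% in the ARID1A-KO samples, beside 97.6% to 103% in the WT samples, so that replicate 3 lay just under and the other two above that range. The 3 ARID1A-KO samples were thus far below the WT samples in both stretches, and they differed little from each other in the inner one.

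**Figure D2:**
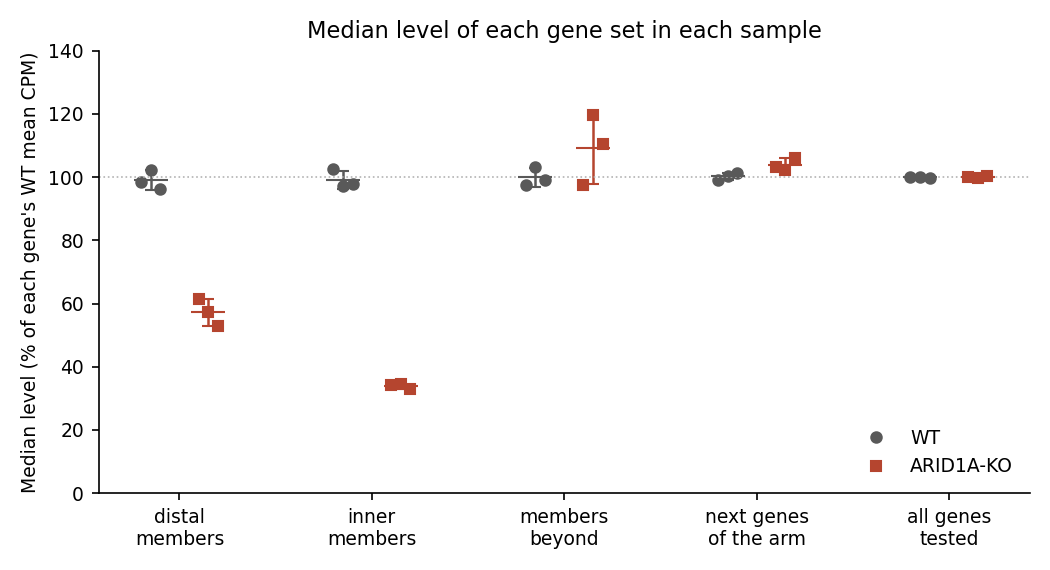
The y axis gives the median, over the genes of a set, of a sample's CPM as a percentage of the gene's WT mean, with 1 point per sample and the group mean ± SD as bars. ARID1A-KO samples lie at 52.9% to 61.5% for the distal genes and at 32.9% to 34.6% for the inner genes, and near 100% for all genes tested.

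Towards the chromosome end, the fall was seen as far out as DOCK8 and ZNG1A, and its outer limit was not resolved. WASHC1, the first of the 64 genes (start 14511) and a subunit of the actin-regulating WASH complex, had 2.98, 3.55 and 2.94 CPM in WT and 3.04, 3.20 and 3.18 CPM in ARID1A-KO samples, which overlap. WASHC1, FOXD4 and ZNG1A have near-identical copies on other chromosome ends or on chromosome 9 itself, and their counts can hold reads from these copies. FOXD4, a forkhead transcription factor, was called lower at a log2 fold change of -0.68 (SE 0.23), and ZNG1A, a zinc-regulated GTPase listed as CBWD1, at -0.82 (SE 0.09). The call of FOXD4 was lost with replicate 3 or 4 of either genotype left out. DOCK8, the first gene without such copies and an activator of the GTPase CDC42, had 2.38, 2.63 and 2.84 CPM in WT samples. Its level was 1.15, 1.13 and 1.33 CPM in ARID1A-KO samples, a log2 fold change of -1.12 (SE 0.16). Beside it, KANK1, a cytoskeletal adaptor, stood at -1.04 (SE 0.10). SMARCA2, which is not among the 64 genes, lies next and stood at -1.18 (SE 0.09), close to these neighbours.

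The division between the distal and inner stretches fell in a gap without well-expressed genes. DMAC1, a factor for assembly of mitochondrial complex I, is the last distal gene and had 41.0, 49.9 and 45.1 CPM in WT and 28.4, 27.9 and 22.2 CPM in ARID1A-KO samples. That is a log2 fold change of -0.80 (SE 0.11). After its end, no gene with a mean log2 CPM over 1 starts for 4.81 Mb, up to LURAP1L-AS1. This antisense RNA had 8.96, 7.30 and 7.85 CPM in WT and 1.41, 1.29 and 1.11 CPM in ARID1A-KO samples. At a log2 fold change of -2.66 (SE 0.15), it was the most negative of the 64 genes. Inside the gap, 2 genes under the count minimum were called lower. Both reached 10 counts in every WT sample but not in every ARID1A-KO sample, so their direction is no support for a fall there. PTPRD, a receptor tyrosine phosphatase, had 49, 46 and 29 counts in WT and 6, 3 and 16 in ARID1A-KO samples. TYRP1, a melanin synthesis enzyme, had 16, 14 and 13 counts in WT and 2, 1 and 5 in ARID1A-KO samples.

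The inner end of the run was sharp. KLHL9, an adaptor of the CUL3 ubiquitin ligase that starts at 21329670 and ends at 21335379, is the last well-expressed gene inside it. It had 89.2, 88.0 and 80.5 CPM in WT and 30.6, 29.8 and 26.0 CPM in ARID1A-KO samples, a log2 fold change of -1.58 (SE 0.08). The next well-expressed gene, MTAP, the first enzyme of methionine salvage, starts at 21802542, 0.467 Mb further on. Its level was 28.5, 31.6 and 28.8 CPM in WT and 40.1, 41.1 and 32.7 CPM in ARID1A-KO samples, so all ARID1A-KO samples lay above all WT samples, at a log2 fold change of 0.35 (SE 0.09). The call of MTAP was lost with WT replicate 3 or 5 or ARID1A-KO replicate 3 or 4 left out, where edgeR gave adjusted p-values of 0.0583 to 0.0751. MIR31HG, a long non-coding RNA between these 2 genes, had 20, 39 and 29 counts in WT and 12, 10 and 13 in ARID1A-KO samples. Its log2 fold change of -1.42 (SE 0.32) puts it with the inner genes, which leaves 0.243 Mb from its end to MTAP for the change of level. A single division of the ordered genes fell between KLHL9 and MTAP with all samples, with each sample left out in turn, and with protein-coding genes alone.

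In the inner stretch, 25 of 27 genes were called lower, none higher, and all 21 protein-coding genes fell by 2-fold or more. Over all genes tested, 18.4% were called lower, 17.8% higher, and 5.92% lower by 2-fold or more. As the stretch was drawn from these fold changes, nothing is read from its counts or from those by role below. Among the protein-coding genes that passed the count minimum, 23 in a row were called lower, from KDM4C in the distal stretch to KLHL9. Protein-coding genes under the minimum that lie between them are not counted in this run. Within the inner stretch the size of the fall varied between neighbours. Its most negative part lay at its outer end, where a running median over 9 genes reached -2.09 around ZDHHC21. The 8 well-expressed genes between 18 and 20 Mb had a median of -1.38 and a range from -1.54 to -1.01. Further in, MLLT3 and FOCAD stood again near -2.37, followed by KLHL9 at -1.58.

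All 5 chromatin and transcription genes of the inner stretch were called lower, with a median log2 fold change of -2.19. PSIP1, NFIB and MLLT3 were among the most strongly lowered genes of the stretch, as were SH3GL2 and FOCAD of other roles. PSIP1 (LEDGF), a reader of methylated histone H3 in gene bodies, had 204, 175 and 177 CPM in WT and 36.0, 32.2 and 36.8 CPM in ARID1A-KO samples, a log2 fold change of -2.40 (SE 0.08). Per transcript length, this was 90.0 ± 8.67 TPM in WT and 16.9 ± 1.43 TPM in ARID1A-KO samples (SD, n = 3 each). The ARID1A-KO samples thus kept 18.9% of the WT level, and no sample of one genotype came near the other. NFIB, a transcription factor of the nuclear factor I family, had 113, 93.1 and 89.9 CPM in WT and 21.8, 20.6 and 22.2 CPM in ARID1A-KO samples. MLLT3 (AF9), a subunit of the super elongation complex, had 19.3, 19.4 and 22.5 CPM in WT and 3.85, 3.95 and 3.98 CPM in ARID1A-KO samples. Their log2 fold changes were -2.19 (SE 0.09) and -2.38 (SE 0.10). SNAPC3, a subunit of the complex that starts small nuclear RNA transcription, stood at -1.82, and BNC2, a zinc-finger protein, at -1.48.

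The 5 chromatin and transcription genes of the distal stretch were also all called lower, but with a median of -0.79. KDM4C, a demethylase of lysine 9 of histone H3, had 15.5, 17.5 and 16.6 CPM in WT and 10.4, 9.46 and 8.91 CPM in ARID1A-KO samples, a log2 fold change of -0.79 (SE 0.09). UHRF2, a ubiquitin ligase that binds modified DNA, likewise stood at -0.79 (SE 0.11). RFX3, a transcription factor of cilia genes, was at -0.66 and GLIS3, a zinc-finger factor known from pancreas and thyroid, at -1.28. FOXD4 is named above. GLIS3 had only 19, 26 and 65 counts in the ARID1A-KO samples, against 70 to 88 in WT samples.

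Cell cycle and growth genes of the inner stretch followed its level, with 5 of 5 called lower and a median of -1.56. FOCAD, the focadhesin gene, had 99.0, 154 and 142 CPM in WT and 28.7, 27.6 and 20.3 CPM in ARID1A-KO samples, a log2 fold change of -2.37 (SE 0.18). WT replicate 3 was lowest for it within WT, yet still above every ARID1A-KO sample. HAUS6, a subunit of the augmin complex of the mitotic spindle, stood at -1.54 and CNTLN, a centrosomal protein, at -1.56. RRAGA, a Rag GTPase that brings mTORC1 to lysosomes, had 65.3, 63.0 and 65.0 CPM in WT and 23.3, 23.3 and 25.2 CPM in ARID1A-KO samples, a log2 fold change of -1.43 (SE 0.06). With KLHL9 these are the 5 genes.

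RPS6, a protein of the small ribosomal subunit, was the most abundant of the 64 genes per transcript length, at 1702 ± 124 TPM in WT and 590 ± 26.9 TPM in ARID1A-KO samples (SD, n = 3 each). In CPM it stood at 1403, 1509 and 1308 in WT and at 526, 497 and 449 in ARID1A-KO samples, with a log2 fold change of -1.52 (SE 0.08). RPS6 has processed copies elsewhere in the genome, and reads of such copies can be counted apart from it. Both other genes of RNA processing lie in the distal stretch and were called lower by its smaller amount. PUM3, an RNA-binding protein listed as KIAA0020, stood at -0.77 and RCL1, a factor of ribosomal RNA processing, at -0.73.

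**Figure D3:**
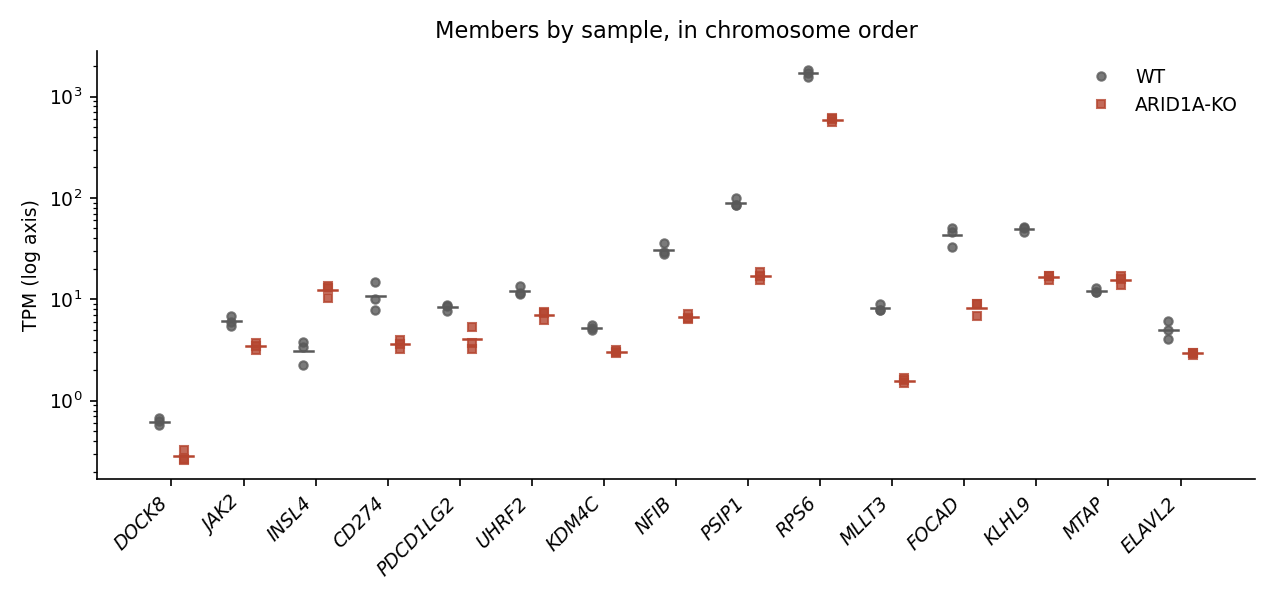
For 15 of the genes in chromosome order, each point is the TPM of a sample on a log axis and each bar is the group mean. The WT and ARID1A-KO points are apart for the genes from DOCK8 to KLHL9, INSL4 is the only one shown in that stretch with ARID1A-KO samples above WT samples, and MTAP and ELAVL2 show smaller differences in opposite directions.

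The signalling and immune genes that passed the count minimum all lie in the distal stretch, and 4 of the 5 were called lower. JAK2, the kinase of several cytokine receptors, had 12.5, 11.1 and 10.2 CPM in WT and 6.61, 5.90 and 6.61 CPM in ARID1A-KO samples, a log2 fold change of -0.82 (SE 0.11), close to the median of its stretch. CD274 (PD-L1), which restrains T cells through PD-1, had 9.80, 18.5 and 12.6 CPM in WT and 5.13, 4.53 and 3.97 CPM in ARID1A-KO samples. Its log2 fold change was -1.59 (SE 0.22), the second most negative of the distal genes after VLDLR-AS1, and between -1.79 and -1.31 over the alternatives. The WT samples of CD274 were spread widely, with replicate 4 highest, but did not reach the ARID1A-KO samples. PDCD1LG2 (PD-L2), the other ligand of PD-1, had 5.59, 6.56 and 6.37 CPM in WT and 2.83, 2.38 and 3.78 CPM in ARID1A-KO samples, a log2 fold change of -1.03 (SE 0.18).

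INSL4, an insulin-like peptide gene known from placenta, went the other way in the midst of lowered neighbours. It had 1.98, 2.24 and 1.34 CPM in WT and 8.46, 7.70 and 5.91 CPM in ARID1A-KO samples, a log2 fold change of 1.98 (SE 0.21). Without overlap between genotypes, its ARID1A-KO level was 394% of the WT level. Its paralogue RLN2, the relaxin gene just beyond it, did not pass the count minimum and had 27, 35 and 26 counts in WT and 0, 0 and 1 in ARID1A-KO samples. RLN1 had at most 5 counts in any sample. The related INSL4, RLN1 and RLN2 sequences can share reads.

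Genes of membrane traffic, lipids and metabolism were called lower in 14 of 15 cases. In the distal stretch their median was -0.76. AK3, a mitochondrial adenylate kinase, had 33.8, 30.5 and 32.5 CPM in WT and 13.5, 15.8 and 14.5 CPM in ARID1A-KO samples, at -1.14 (SE 0.08). RIC1, a partner of the GTPase RAB6A in Golgi traffic that is listed as KIAA1432, stood at -1.26, ERMP1, a metallopeptidase of the endoplasmic reticulum, at -1.05, and RANBP6, an importin family member, at -1.13. Smaller falls were seen for VLDLR, the very low density lipoprotein receptor, at -0.58 (SE 0.17), CDC37L1, an Hsp90 cochaperone, at -0.56, and PLPP6, a lipid phosphatase, at -0.49. The call of VLDLR was lost with WT replicate 4 or ARID1A-KO replicate 3 or 5 left out, and that of PLPP6 with ARID1A-KO replicate 4 left out. GLDC, of the glycine cleavage system, had 107, 142 and 82 counts in WT and 139, 123 and 148 counts in ARID1A-KO samples and was not called, at 0.24 (SE 0.19). PLGRKT, a plasminogen receptor, at -0.69 and SLC1A1, a glutamate transporter, at -0.84 complete the 10 distal genes.

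The 5 genes of this group in the inner stretch had a median of -1.47. ZDHHC21, a palmitoyltransferase, stood at -2.22 (SE 0.10), and TTC39B, known from lipoprotein metabolism, at -2.09 (SE 0.11). PLIN2, which coats lipid droplets, had 54.4, 62.1 and 56.3 CPM in WT and 30.1, 29.1 and 26.9 CPM in ARID1A-KO samples. At -1.01 (SE 0.08) it showed the smallest fall of the inner protein-coding genes, and it still kept the samples of the genotypes apart. ACER2, a ceramidase of the Golgi, stood at -1.07 and DENND4C, an activator of RAB10, at -1.47.

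Of the genes listed under adhesion, matrix and junctions, 5 passed the count minimum. All 5 were called lower, 1 in the distal and 4 in the inner stretch. SH3GL2, the endophilin A1 of synaptic vesicle recycling, had 8.02, 7.58 and 9.35 CPM in WT and 1.56, 1.87 and 1.39 CPM in ARID1A-KO samples, a log2 fold change of -2.38 (SE 0.15). MPDZ, a scaffold of tight junctions, stood at -1.87 (SE 0.10), LURAP1L at -1.41 and ADAMTSL1, a secreted protein of the matrix, at -1.10. The fifth gene is KANK1.

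Among genes without a role on the lists, SPATA6L and KIAA2026 in the distal and CCDC171 in the inner stretch were called lower at -0.90, -0.98 and -1.76. RP11-31F19.1, the transcript that is no longer annotated, was called lower at -0.84 with 31, 30 and 23 counts in WT and 17, 15 and 18 in ARID1A-KO samples, and lost the call with any sample but WT replicate 5 left out. Of the long non-coding RNAs, 5 of 9 were called lower and 1 higher, where 18.4% and 17.8% of all genes tested were called. LINC01239, called higher, and ENSG00000224549, not called, lie beyond the run. The 3 not called had at most 43 counts in any sample. Besides those named above, ENSG00000234740 and ENSG00000260912 in the inner stretch were called lower at -1.29 and -1.33, and CDC37L1-DT and BNC2-AS1 were not called at -0.25 and -0.56. VLDLR-AS1 had 2.50, 1.35 and 2.01 CPM in WT and 0.367, 0.364 and 0.466 CPM in ARID1A-KO samples, a log2 fold change of -2.27 (SE 0.26), beside -0.58 for VLDLR on the other strand. The 2 pseudogenes, LDHAP4 in the inner and RPL4P5 in the distal stretch, were not called and stood at -0.34 and -0.05. LDHAP4 had 4.57, 4.35 and 4.45 CPM in WT and 3.67, 3.62 and 3.29 CPM in ARID1A-KO samples, and both pseudogenes can hold reads of the genes they were copied from. Without the genes that have such copies, 51 of 59 genes were called lower and the median was -1.10.

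Beyond the run, the 5 remaining genes moved in both directions. LINC01239 had 2.19, 1.89 and 2.15 CPM in WT and 3.20, 2.60 and 4.18 CPM in ARID1A-KO samples and was called higher at 0.69 (SE 0.19). DMRTA1, a transcription factor of the DMRT family, was not called at -0.02 (SE 0.20), nor was the long non-coding RNA ENSG00000224549 at 0.29 (SE 0.32). ELAVL2, a neuronal RNA-binding protein and the last of the 64 genes (start 23690102), had 9.37, 6.44 and 7.78 CPM in WT and 4.86, 4.42 and 4.51 CPM in ARID1A-KO samples. At -0.77 (SE 0.15) it was called lower again, although MTAP and LINC01239 before it were called higher.

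A minimum of counts in every sample removes genes that fell to few reads, so the 269 genes of the span that it left out were counted as well. Of these, 152 had no count in any sample and 252 stayed under 10 in all 6. Of the rest, 8 reached 10 in every WT sample but not in every ARID1A-KO sample, and 0 did the reverse. Only 9 of the genes left out were tested, of which 6 were called lower and 0 higher at an adjusted p under 0.05 from edgeR. All 6 reached 10 counts in every WT sample but not in every ARID1A-KO sample, so their direction is no support for the fall. They are DDX11L5, DMRT1, DMRT3, RLN2, PTPRD and TYRP1. DMRT1, a factor of gonad development, had 57, 44 and 74 counts in WT and 20, 8 and 24 in ARID1A-KO samples. Just inside the minimum lay BNC2-AS1 and MIR31HG, whose lowest count was 10, and just outside it lay DMRT3, with 35, 33 and 22 counts in WT and 15, 15 and 9 in ARID1A-KO samples.

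The type I interferon cluster, between the inner stretch's FOCAD and MTAP, was almost silent in both genotypes. Of 27 interferon genes and pseudogenes, 23 had no count in any sample. IFNE, the highest, had 16, 13 and 8 counts in WT and 5, 9 and 4 in ARID1A-KO samples and was not called. CDKN2A, which encodes p16 and p14ARF, had 0 counts in all 6 samples, and CDKN2B had 0, 0 and 0 in WT and 2, 0 and 4 in ARID1A-KO samples. Their antisense RNA CDKN2B-AS1 had 5, 1 and 3 counts in WT and 0, 0 and 2 in ARID1A-KO samples. At this depth no difference of these cell cycle inhibitors between genotypes could be detected.

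The partners of these genes elsewhere in the genome were read from lists chosen by function. Of 14 genes that act with the products of CDKN2A and CDKN2B, 9 were called lower and 0 higher, where 18.4% of all genes tested were called lower, and the list had a median log2 fold change of -0.30. CDK6, a kinase that p16 inhibits, had 185 ± 20.1 CPM in WT and 110 ± 1.62 CPM in ARID1A-KO samples (SD, n = 3 each), which was -0.75 as a log2 ratio (SE 0.08, edgeR adjusted p = 0.000115). RB1, the retinoblastoma protein, stood at -0.42, whereas CDK4 and MDM4 were not called at -0.05 and -0.02. Over the alternatives the number called lower in this list lay between 6 and 9.

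Of 20 genes that act with JAK2 in JAK-STAT signalling, 4 were called lower and 2 higher, where 18.4% and 17.8% of all genes tested were called, with a median of -0.07. STAT3 had 216 ± 36.4 CPM in WT and 120 ± 23.5 CPM in ARID1A-KO samples (SD, n = 3 each), which was -0.85 as a log2 ratio (SE 0.15, edgeR adjusted p = 0.00228). The feedback inhibitor SOCS3 stood at -1.36 (SE 0.26, edgeR adjusted p = 0.00311), with STAT5B at -0.55 and TYK2 at -0.32. JAK3 at 0.55 and IRF9 at 0.75 were the genes called higher. Over the alternatives the number called higher in this list lay between 0 and 2, and it was 0 without WT replicate 3 or without WT replicate 5. JAK1 was not called at 0.06.

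After 25 Mb the arm returned to the level of the genome. TUSC1, the first tested gene past the limit (start 25676396), stood at 0.11 (SE 0.15). The 111 genes tested between 25 and 40 Mb had a median of 0.07. Of them, 11 were called lower and 19 higher, where 18.4% and 17.8% of all genes tested were called. Between 25 and 30 Mb, 4 of 9 tested genes were nevertheless called lower. TEK, an angiopoietin receptor, stood at -2.14 (SE 0.33), MOB3B at -1.62 (SE 0.36) and LINGO2 at -1.06 (SE 0.18), and the long non-coding RNA ENSG00000260412 at -1.29 (SE 0.28). Their neighbours CAAP1, IFT74 and C9orf72 stood at 0.21, 0.37 and 0.11. Between 25 and 30 Mb, lowered genes thus stood beside others that were called higher or not called. Past 30 Mb, RECK, GLIPR2 and CCIN were called lower in a row, at -0.65, -0.58 and -2.54. Such groups were shorter than the run before MTAP.

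Over the genome, 455 windows of 5 Mb held at least 10 genes with a mean log2 CPM over 1, and the middle window had a median log2 fold change of -0.02. The span was chosen for its low values in this same contrast, so the ranks of its windows are a description and no separate support. The window of chromosome 9 from 15 to 20 Mb was the lowest of all of them, at -1.52 over 15 genes, all negative. The window from 5 to 10 Mb ranked 7 from the lowest at -0.98, and that from the chromosome end to 5 Mb ranked 10 at -0.75. The windows from 10 to 15 Mb and from 20 to 25 Mb held only 6 genes each, with medians of -2.03 and -1.18. Other windows among the 10 lowest lay on chromosomes 4, 6 and 13, and the lowest of them stood at -1.17 over 12 genes of chromosome 6. Low windows of this size were thus found on 4 chromosomes, and their members outside 9p are not described here.

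**Figure D4:**
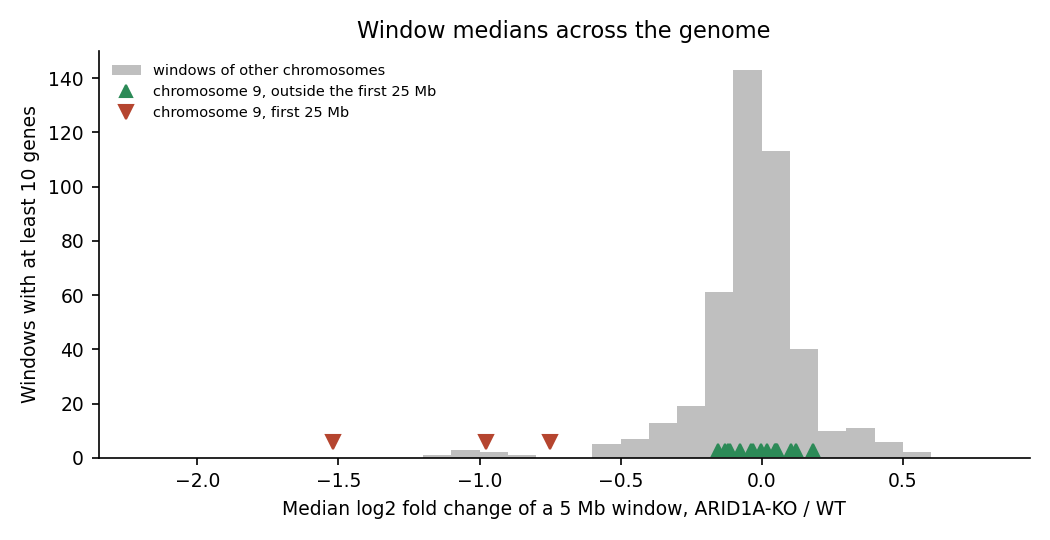
The histogram gives the number of 5 Mb windows of other chromosomes by their median log2 fold change, and triangles mark the windows of chromosome 9 (their height has no meaning). The 3 windows of the first 25 Mb lie at -1.52, -0.98 and -0.75, apart from the other windows of chromosome 9, which lie around 0.

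The size of the fall went with expression and length only loosely. Across genes, Spearman's rho of the log2 fold change with the mean log2 CPM was -0.22 in the 32 distal and -0.37 in the 27 inner genes, and with exonic length it was -0.42 and -0.40. With position inside a stretch it was 0.02 and 0.18. These are descriptions across genes of the same libraries, which are not independent replicates, and longer or more abundant genes also carry more counts.

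**Figure D5:**
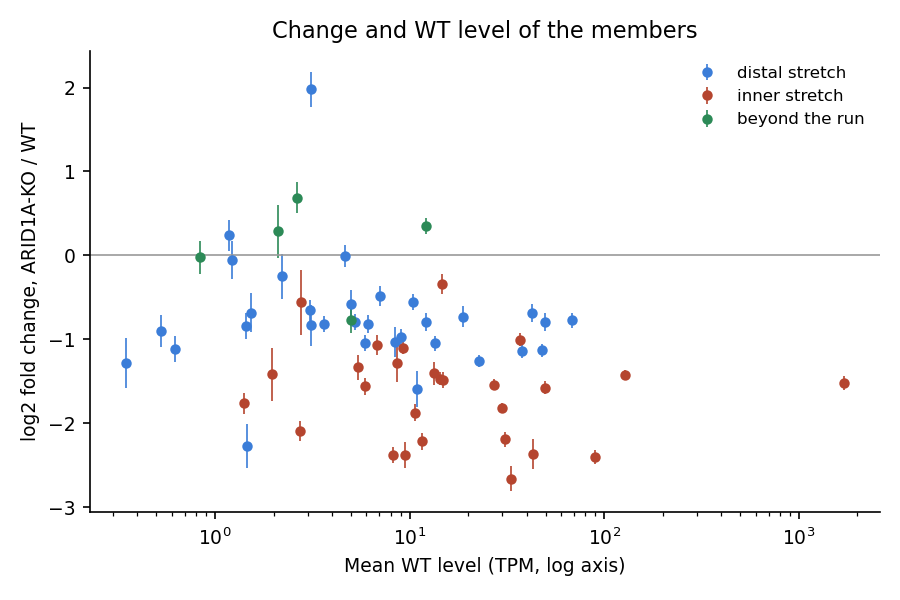
The x axis gives the mean WT level in TPM on a log axis and the y axis the log2 fold change with its standard error, 1 point per gene and coloured by stretch. Most inner genes lie below most distal genes, but the stretches overlap at similar levels. PLIN2 (inner, 37.1 TPM) stands at -1.01 and AK3 (distal, 37.7 TPM) at -1.14. INSL4 stands alone at 1.98.

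The sequence before the genes' starts was compared as a feature that did not enter the choice of genes. The windows of 250 bases upstream of the annotated start, in GRCh37, had a median GC content of 59.2% in the 52 protein-coding genes, 56.4% in the distal and 63.6% in the inner ones, beside 61.2% for all protein-coding genes tested. The AP-1 motif TGANTCA, searched on both strands with N for any base, was found in 3 of the 52 windows (5.77%), all 3 of them distal, beside 4.85% of all protein-coding genes tested. The windows of the 2 lowest and the 2 highest well-expressed protein-coding genes are shown to let the extremes be compared, 5′ to 3′ on the strand of the gene, with every CG dinucleotide in capitals.
PSIP1, chr9:15511018-15511267, minus strand: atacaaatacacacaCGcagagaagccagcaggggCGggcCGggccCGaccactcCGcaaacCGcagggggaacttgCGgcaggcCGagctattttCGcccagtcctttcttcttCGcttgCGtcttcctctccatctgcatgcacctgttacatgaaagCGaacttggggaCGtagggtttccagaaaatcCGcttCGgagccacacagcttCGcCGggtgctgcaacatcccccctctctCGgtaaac
SH3GL2, chr9:17578830-17579079, plus strand: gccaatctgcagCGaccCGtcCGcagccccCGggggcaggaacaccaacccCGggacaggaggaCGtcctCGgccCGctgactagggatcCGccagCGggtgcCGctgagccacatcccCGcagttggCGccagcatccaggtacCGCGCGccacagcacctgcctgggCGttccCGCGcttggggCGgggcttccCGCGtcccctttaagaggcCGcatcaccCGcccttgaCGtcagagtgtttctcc
MTAP, chr9:21802292-21802541, plus strand: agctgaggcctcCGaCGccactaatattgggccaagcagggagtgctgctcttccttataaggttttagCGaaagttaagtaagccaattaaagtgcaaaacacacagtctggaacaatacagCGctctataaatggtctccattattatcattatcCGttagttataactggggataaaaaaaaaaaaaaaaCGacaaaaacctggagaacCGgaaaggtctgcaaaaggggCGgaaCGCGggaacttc
INSL4, chr9:5231169-5231418, plus strand: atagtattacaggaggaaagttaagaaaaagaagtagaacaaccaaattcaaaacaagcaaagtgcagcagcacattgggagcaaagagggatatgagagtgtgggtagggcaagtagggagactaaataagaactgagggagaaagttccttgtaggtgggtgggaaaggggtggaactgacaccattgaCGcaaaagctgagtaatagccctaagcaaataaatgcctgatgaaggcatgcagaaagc
PSIP1 and SH3GL2 hold 18 and 25 CG dinucleotides, MTAP 10 and INSL4 only 1. The median was 15 over the 52 windows and 16 over all protein-coding genes tested. It was 14 in the distal and 18 in the inner windows. Some genes departed from these medians. NFIB and FOCAD, at log2 fold changes of -2.19 and -2.37, hold only 1 and 3. VLDLR and RCL1, at -0.58 and -0.73, hold 43 and 32. The printed windows were picked by fold change, and a relation between CG count and the fall was not tested.

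Some of the lowered genes also carry microRNAs, whose mature forms were not measured by these libraries. A selection from 3 hosts called lower is given, with the seed (bases 2 to 8) in capitals and sequences from RefSeq (GRCh38.p14). ADAMTSL1 and MLLT3, also called lower, carry further microRNAs that are not printed here.
hsa-miR-31-5p, in MIR31HG: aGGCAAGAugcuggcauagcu
hsa-miR-491-5p, in FOCAD: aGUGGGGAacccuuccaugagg
hsa-miR-101-3p, in RCL1: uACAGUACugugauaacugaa
The hosts MIR31HG, FOCAD and RCL1 stood at log2 fold changes of -1.42, -2.37 and -0.73. The 3 seeds differ, and the hairpins themselves had at most 5 counts over all 6 samples together, so only the host transcripts can be compared.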

How the data were processed

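Untreated AID-DivA cells were sequenced in paired 100 bp reads, and the genotype label gave 3 samples of WT and 3 of ARID1A-KO. The authors used the Roddy workflow with STAR on GRCh37, counted reads by gene with featureCounts, and deposited these counts as whole numbers together with TPM values, scaled over all genes of a sample. The methods name a total RNA kit, whereas the labels give polyA RNA. Versions of STAR and featureCounts are not given in the sources used here. The reverse-stranded counts were used, since forward counts came to between 5.83% and 6.15% of them. Genes that overlap on the same strand cannot be told apart.

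Low counts were removed by filterByExpr and libraries scaled by TMM, and genotypes were then compared by the quasi-likelihood test of edgeR 4.0.16 under R 4.3.3, with Benjamini-Hochberg adjustment over all 19599 genes tested and no covariate. Standard errors come from this fit. The study describes its replicates as independent experiments, and p-values measure the spread between these samples of each genotype. Levels are CPM after TMM, with a common biological coefficient of variation of 0.111. The deposited TPM was used to compare genes.

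The span, the members, the gene lists and the divisions into stretches were chosen with earlier results of these data known. Named genes are those of role lists, the 5 most negative and 5 most positive members with a mean log2 CPM over 1, genes at the limits, and genes whose call changed when a sample was left out. TEK, MOB3B, LINGO2 and other genes after 25 Mb were named after their values were seen. SNORD137 of the lists is not listed under that name, and some genes of the lists are not reported here by name. Where the tables use older names, current names come from the GENCODE annotation. As alternatives, the comparison was run with DESeq2 1.42.0, RLE scaling, counts without strand, a replicate block, or no filter, leaving out each sample, at a threshold of 0.01, with other rules for members, and the log2 ratio of mean TPM with 0.1 added. The 2 divisions, stretch medians over the alternatives and members without copies elsewhere were chosen after seeing the data.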

Additional observations from a re-analysis of the deposited data

How the results depend on the processing

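The number of genes called lower was 53 and stayed between 50 and 53 with each sample left out. It was 51 with DESeq2, 52 without a filter and 49 at an adjusted p under 0.01. The number called higher was 3, and it was 1 at an adjusted p under 0.01 and 1 for the genes starting before 20 Mb, where by construction the genes beyond the run are not counted. With each sample left out it was 2 or 3. The median log2 fold change of -1.05 lay between -1.11 and -1.02 with each sample left out, where -1.11 was the value without WT replicate 3. It was -1.08 for the 46 genes with at least 100 counts in every sample and -1.10 without genes that have copies elsewhere, and it stayed within the spread between replicates under the other alternatives. Stretch medians ranged from -0.85 to -0.75 for the distal, from -1.59 to -1.53 for the inner and from -0.06 to 0.33 for the 5 genes beyond the run, whose median turned negative only without ARID1A-KO replicate 5. Windows of 5 Mb put the end of the run at 25 Mb and windows of 2 Mb at 22 Mb, both coarser than the division of the ordered genes. Of the 53 genes called lower, 49 kept the call under all 11 refits. FOXD4, RP11-31F19.1, VLDLR and PLPP6 lost it under some, FOXD4 and RP11-31F19.1 with up to 0.156 and 0.155 as adjusted p from edgeR's or DESeq2's test, and all 4 lost it with a sample left out.

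The replicate numbers are shared between genotypes, but deviations of same-numbered samples correlated at -0.177, 0.268 and 0.180, so the numbers were not taken as pairs. With the number as a replicate block, 52 genes were called lower and 3 higher, and the median was -1.05. FOXD4 was the gene that lost its call.

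The files hold RNA only, from 3 samples a genotype. For those under about 100 counts, such as GLIS3, MIR31HG and BNC2-AS1, the sampling error is a large part of the spread.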
